A study of Mus musculus with 5 samples.

Results

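The genes described here are those set apart in duct replicate 1, 1 of 3 arrays of sorted cells from the ducts of mouse tracheal submucosal glands. A probe set, the group of short probes that reads 1 transcript, was taken if it had 1 annotated gene symbol and an intensity of at least 500 on duct replicate 1. That value also had to be at least 4 times those of both duct replicates 2 and 3. Control probe sets were left out, as were symbols starting with Muc, Scgb, Bpif, Krt or Sprr, of which 0 of 151 probe sets met the same values. The rule found 11 probe sets, for 11 of 18193 genes: Itln1, Cnksr3, Acss2, Grwd1, Fam76b, Coro7, Cnpy2, Pknox2, B3galt6, Eny2 and AI467606. That is 0.0316% of 34794 single-gene probe sets outside the excluded families. Because the duct intensities chose them, their height on duct replicate 1 is a description and carries no test.

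The study compared epithelial cells of C57BL/6 mice, male and female and 8 to 12 weeks old, each sample being a separate pool of 10 to 15 animals. Basal cells (2 arrays) came from surface epithelium of the lower trachea, freed with dispase and sorted for ITGA6 and a further surface antigen. Duct cells (3 arrays) came from the upper trachea after pronase had removed the surface epithelium, and were sorted for that further antigen alone, no ITGA6 stain being named for them. Enzyme, section of the trachea and sort gate thus changed together with cell type and cannot be told apart; no animal carried a transgene or received a treatment, as far as the labels say.

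The ducts of submucosal glands carry the mucus and antimicrobial proteins of serous and mucous gland cells to the airway surface, and they hold progenitor cells that can renew the surface epithelium after injury. On arrays of whole pools, fewer cells of a type and less RNA per cell cannot be told apart.

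The member genes lay on 8 chromosomes and share no family. RefSeq promoter sequence of build GRCm38.p6 was held for 9 of the 11, all but Eny2 and Pknox2. The table lists 250 bases before a transcription start; for 5 of the 9, Itln1 among them, some or all of these lie inside the RefSeq gene, downstream of its outermost start. The stretches of Itln1 (219 bases, those outside the gene), Cnksr3 and Acss2 are shown, since these are the 3 members with the highest intensities on duct replicate 1. They lie at chr1:171535326-171535544 (minus strand), chr10:7212238-7212487 (minus strand) and chr2:155517793-155518042 (plus strand). Each is written 5′ to 3′ on the strand of its gene, and capitals mark matches to the motifs searched, on either strand.
Itln1: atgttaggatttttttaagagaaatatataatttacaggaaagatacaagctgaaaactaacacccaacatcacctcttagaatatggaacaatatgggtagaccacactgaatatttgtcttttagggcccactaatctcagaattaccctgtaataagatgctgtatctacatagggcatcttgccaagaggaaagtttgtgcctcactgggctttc
Cnksr3: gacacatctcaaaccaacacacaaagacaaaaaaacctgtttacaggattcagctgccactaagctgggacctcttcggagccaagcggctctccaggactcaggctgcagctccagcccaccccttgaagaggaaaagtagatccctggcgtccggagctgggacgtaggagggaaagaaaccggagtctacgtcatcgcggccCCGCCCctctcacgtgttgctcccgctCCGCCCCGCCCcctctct
Acss2: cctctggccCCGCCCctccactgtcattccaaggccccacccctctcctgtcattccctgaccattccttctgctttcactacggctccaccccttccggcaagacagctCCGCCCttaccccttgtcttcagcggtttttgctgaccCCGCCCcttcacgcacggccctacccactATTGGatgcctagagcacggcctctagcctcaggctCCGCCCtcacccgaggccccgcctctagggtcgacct
The motifs were the TATA box TATAAA, the CCAAT box CCAAT, the GC box GGGCGG, the sterol regulatory element TCACNCCAC and AGAACA, part of the longer element that steroid receptors bind. Acss2 held 4 GC boxes and 1 CCAAT box, Cnksr3 held 3 GC boxes, of which adjacent ones overlap, and Itln1 held none of the 5 motifs in its 250 bases. Over the 9 member promoters, GC boxes were in 3 and CCAAT boxes in 4, against 32.7% and 33.8% of 32851 mouse promoters. AGAACA was in 1 of the 9, that of Cnpy2, against 16.1%. TATAAA and TCACNCCAC were in 0 of the 9, against 12.4% and 1.05%. GC content was lowest in Itln1 and reached 71.6% in B3galt6, with a median of 59.2%, so the member promoters did not share a composition.

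Values are given below in array order, basal replicates 1 and 2 and then duct replicates 1, 2 and 3, as intensities in arbitrary units. Background was read from 27 control probe sets for Bacillus transcripts. The brightest of these ran from 39.5 on duct replicate 1, the lowest of the 5 arrays, to 86.5 on basal replicate 2. All 11 members were above that level on duct replicate 1, and 10 were on all 5 arrays.

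Secreted and secretory-pathway products made up 4 members. Itln1 encodes intelectin 1, a secreted lectin of goblet and Paneth cells that binds microbial sugars. Its probe set (1418165_at, the only one of the gene) measured 239, 612, 2152, 204 and 314. Duct replicate 1 was 6.85 times the higher of the other duct arrays, which lay within or just under the range of the basal arrays. Cnpy2 encodes a canopy family protein of the endoplasmic reticulum. Its member probe set (1416507_at) measured 217, 338, 849.6, 134 and 96.6, a ratio of 6.34, with both other duct arrays under both basal arrays. Coro7 encodes a coronin of the Golgi apparatus that acts in export from it. It measured 125, 244, 958, 149 and 149 (1428147_at, ratio 6.41), so duct replicates 2 and 3 were alike and lay between the basal arrays. B3galt6 encodes a galactosyltransferase that builds the linker by which sugar chains are attached to proteoglycans. It measured 809.6, 398, 639.5, 141 and 90.7 (1435252_at, ratio 4.54). Here duct replicate 1 fell between the basal arrays, and duct replicates 2 and 3 were the low ones.

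Metabolism and ion transport account for 2 members. Cnksr3 encodes a scaffold protein that holds the epithelial sodium channel in a signalling complex downstream of aldosterone. Its only probe set (1433983_at) measured 209.9, 198, 2149, 276 and 444, and duct replicate 1 was 4.84 times duct replicate 3. Acss2 encodes the acetyl-CoA synthetase of cytosol and nucleus, which makes acetyl-CoA from acetate for lipid synthesis and histone acetylation. It measured 334, 635, 2105, 319.8 and 401 (1422478_a_at, ratio 5.25). In both genes the other 4 arrays lay far below duct replicate 1. For Cnksr3, duct replicates 2 and 3 were both above both basal arrays.

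Nuclear proteins made up 3 further members. Grwd1, a WD-repeat protein of ribosome assembly, measured 258, 278, 1292, 223 and 242 (1436887_x_at, ratio 5.35). The suffix of that probe set marks it as one whose probes may also read other transcripts. Pknox2, a homeodomain transcription factor of the TALE class, measured 223, 318, 691, 164 and 172 (1433907_at, ratio 4.03). Eny2, a subunit shared by the SAGA coactivator and the TREX-2 mRNA export complex, measured 54.1, 559.9, 613, 54.3 and 69.9 (1429410_at, ratio 8.77). For Eny2, basal replicate 2 stood with duct replicate 1. Basal replicate 1 and duct replicate 2 were under the brightest control of their arrays, at 59.7 and 55.9, while duct replicate 3 was just above its own, at 61.9.

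The last 2 members have no role given here. Fam76b measured 212, 507, 1137, 247 and 137 (1452268_at, ratio 4.61). AI467606, a protein-coding gene with a sequence-clone name that the naming rule leaves out, measured 504, 1212, 579.9, 92.3 and 64.1 (1433465_a_at, ratio 6.28). As for B3galt6, duct replicate 1 of AI467606 lay between the basal arrays.

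**Figure D1:**
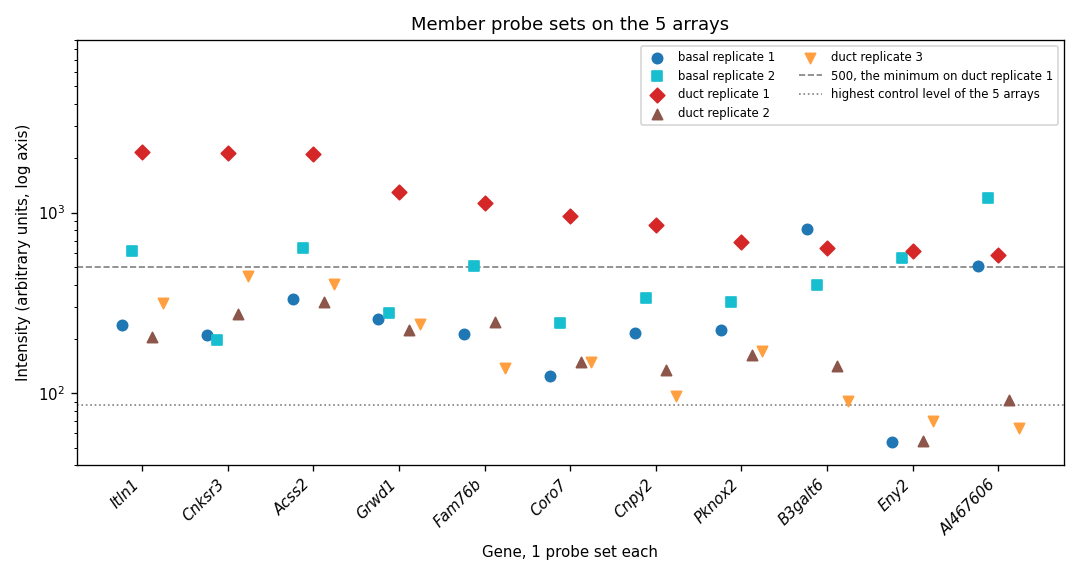
Intensity of the 11 member probe sets (log axis, arbitrary units) on the 5 arrays, 1 point per array, with the minimum of 500 dashed and the highest control level of the 5 arrays, 86.5, dotted. Duct replicate 1 is above both basal arrays for 9 genes and between them for B3galt6 and AI467606.

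Over the 11 members, intensities on duct replicate 1 ran from 579.9 to 2152 with a median of 958, and the ratio to the higher of duct replicates 2 and 3 from 4.03 to 8.77 with a median of 5.35. Duct replicate 3 was above duct replicate 2 for 7 members and below it for 4. Just inside the fold threshold were Pknox2 (4.03) and B3galt6 (4.54). Just outside it were Rbsn (3.98) and Cldn2, a claudin (3.93; 191, 89.3, 1064, 236 and 271). Just inside the intensity threshold were AI467606 and Eny2, and just outside it Cdk7, at 476 on duct replicate 1, and Stra6, the retinol uptake receptor, at 444.

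Most of the genes have other probe sets. Where duct replicate 2 or 3 was above background, none of these showed the 4-fold difference. For 9 of the 11 genes the array holds 23 other single-gene probe sets; Itln1 and Cnksr3 have none. Of the 20 with a duct replicate 2 or 3 value above background, 0 reached 4 times both other duct arrays and 1 reached 2 times. A further 7 were above both by less than that, and 12 were not above both; the median ratio was 0.963. The ratios ran from 0.251 to 3.09, and on 5 of the 20 probe sets duct replicate 1 was below both other duct arrays. The probe sets are on the same 5 arrays, so this too is a description and not a test.

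The probe set that came nearest was another of Cnpy2 (1459846_x_at), at 20.5, 255, 206, 66.8 and 35.0, a ratio of 3.09. Its other probe sets measured 4015, 3972 and 3287 (1437783_x_at, ratio 1.01) and 1258, 1439 and 1181 (1448372_a_at, ratio 0.875) on duct replicates 1, 2 and 3. On those, the 3 duct arrays stood together. Eny2 had 5 other probe sets with ratios of 0.513 to 1.03; one of them (1460392_a_at) measured 7939, 6611 and 7712 on the duct arrays. Fam76b had ratios of 1.85 (1426985_s_at; 1044, 565 and 522 on the duct arrays) and 1.39. It was the gene whose other probe sets were both above duct replicates 2 and 3. Acss2 had ratios of 0.703 and 0.765, Grwd1 of 0.926 and 1.11, and B3galt6 of 0.251 and 0.984. Coro7 had 4 measured ratios, from 0.436 to 1.10. The other probe set of AI467606 measured 81.2, 160, 75.6, 2.19 and 6.67 in array order. With duct replicates 2 and 3 at background, duct replicate 1 was at least 1.22-fold higher than these. The other probe set of Pknox2, and a further one of Coro7, gave no fold, since duct replicates 2 and 3 were at background and the bound was under 1.

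**Figure D2:**
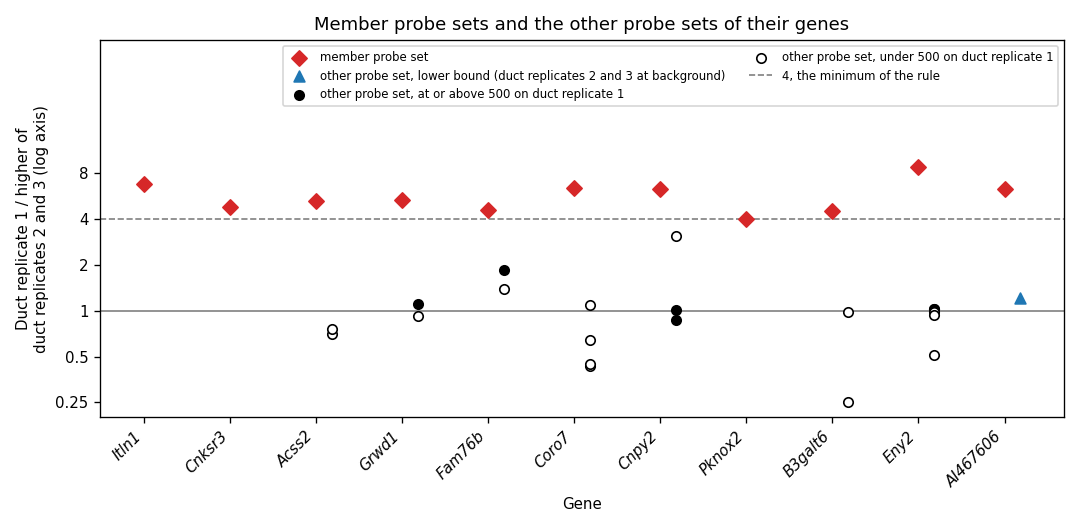
Ratio of duct replicate 1 to the higher of duct replicates 2 and 3 (log axis) for the 11 member probe sets (red diamonds) and the other probe sets of their genes (circles; filled at or above 500 on duct replicate 1). The triangle is the lower bound of AI467606, 1.22. The 6 filled circles lie between 0.875 and 1.85, under the dashed line at 4.

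How far duct replicate 1 stood apart by the number of such probe sets depended on the scaling of the arrays. As deposited, turned to duct replicate 2, the same rule found 15 probe sets, of 14 genes, and turned to duct replicate 3 it found 30. In the opposite direction, 40 single-gene probe sets were at or above 500 on both other duct arrays and at least 4 times the value on duct replicate 1. For duct replicates 2 and 3 those counts were 2 and 13, so duct replicate 1 had the most low probe sets and the fewest high ones. Each array was deposited with the same trimmed mean, but the median intensity was 92.3 on duct replicate 1 and 147 to 153 on the other 4. With quantile normalization the rule found 13 probe sets high on duct replicate 1, 11 of them the members, against 11 on duct replicate 2 and 30 on duct replicate 3. The counts of low probe sets were then 23, 2 and 13. With the arrays scaled to the same median it found 85 high on duct replicate 1, again with all 11 members, against 5 and 17 on duct replicates 2 and 3. There duct replicate 1 had by far the most high probe sets, and its 8 low ones stood beside 7 and 19.

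**Figure D3:**
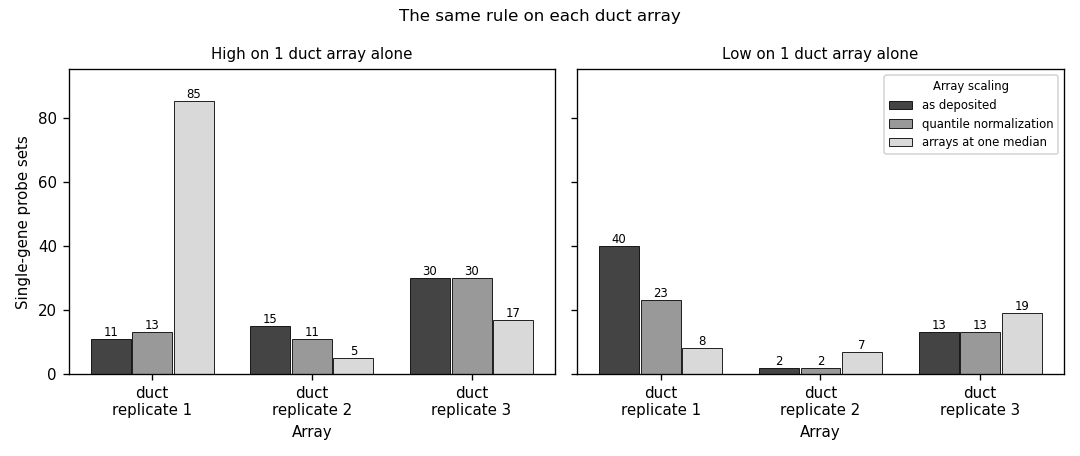
Number of single-gene probe sets high (left) or low (right) on 1 duct array alone, by the same minimum of 500 and fold of 4, for each duct array and each scaling of the arrays. As deposited, the bars for high probe sets read 11, 15 and 30; with the arrays at one median they read 85, 5 and 17.

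The basal arrays were not used by the rule. Duct replicate 1 was above both basal arrays for 9 of 11 members and between them for 2, while 50.4% of single-gene probe sets at or above 500 on duct replicate 1 were above both. It was at least 4 times both for 2 members, Cnksr3 (10.2 times the higher basal array) and Grwd1 (4.66), against 2.22% of those probe sets. Coro7 (3.92), Itln1 (3.52) and Acss2 (3.32) came next. Without basal replicate 2 the count was 7, and with the arrays at the same median it was 5. Members were chosen to be high on duct replicate 1, so these counts partly follow from the choice.

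The basal arrays differed from each other as well. Basal replicate 2 was above basal replicate 1 for 9 of 11 members, all but Cnksr3 and B3galt6. It was above for 49.9% of all single-gene probe sets and for 54.2% of those at or above 500 on duct replicate 1. The ratio reached 4 for Eny2, at 10.4, which is 1 of 11 members, against 5.45% of all single-gene probe sets. For Itln1, Fam76b and AI467606 basal replicate 2 was 2.56, 2.39 and 2.40 times basal replicate 1. The opposite ratio reached 4 for 0 members, against 5.61%. In B3galt6 basal replicate 1 was 2.03 times basal replicate 2, the other way round. Duct replicates 2 and 3 were both below both basal arrays for 5 members (Grwd1, Cnpy2, Pknox2, B3galt6 and AI467606), against 27.3% of tested single-gene probe sets. The rule asked for low values on those arrays, so nothing is read from that count.

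Duct cells were compared with basal cells to ask how these airway populations differ. By limma on log2(intensity + 16), over 27022 probe sets that passed a filter on low mean intensity and with Benjamini-Hochberg adjustment, 55 probe sets, or 0.204%, had an adjusted p under 0.05, 0.196% higher and 0.0074% lower in duct cells. All 11 members passed the filter, which a high value on duct replicate 1 helps to pass. Of the 11, 0 were called and 0 had an unadjusted p under 0.05, against 14.9% of all probe sets. A value far above the others on 1 array widens the spread within the duct group, so a member could hardly pass. Fold changes of the members were positive for 7 and negative for 4, with a median of 0.06, against -0.13 over all tested probe sets. Duct and basal arrays did not overlap for 1 member, Cnksr3, against 37.7% of tested single-gene probe sets.

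Cnksr3 had a basal mean of 204 ± 8.52 (SD, n = 2) and a duct mean of 956 ± 1037 (SD, n = 3). Its log2 fold change was 1.59 (SE 0.86, 95% confidence interval -0.53 to 3.72, limma adjusted p = 0.448). Without duct replicate 1 it was 0.74 (adjusted p = 0.419), still higher on both remaining duct arrays than on both basal arrays. AI467606 went the other way, with a basal mean of 858 ± 500.3 and a duct mean of 245 ± 289.995. Its log2 fold change was -2.21 (SE 0.94, interval -4.54 to 0.13, limma adjusted p = 0.355), and -3.10 without duct replicate 1 (adjusted p = 0.183). B3galt6 was at -1.40 (SE 0.83, limma adjusted p = 0.484), and at -2.18 without duct replicate 1. The other 8 members lay between -0.37 (Eny2) and 0.64 (Coro7), with adjusted p up to 0.991 by limma.

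The direction of 6 members rested on duct replicate 1. Without it Itln1 turned from 0.43 to -0.57, Acss2 from 0.48 to -0.35, Coro7 from 0.64 to -0.21, Grwd1 from 0.61 to -0.19, Fam76b from 0.06 to -0.78 and Pknox2 from 0.03 to -0.62. Since duct replicates 2 and 3 were chosen to be low beside duct replicate 1, these turns describe the choice of members. Without duct replicate 1, limma called 0 of the 11, against 0.0333% of 27022 probe sets, and 3 had an unadjusted p under 0.05, against 14.0%; the same choice bears on that count.

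**Figure D4:**
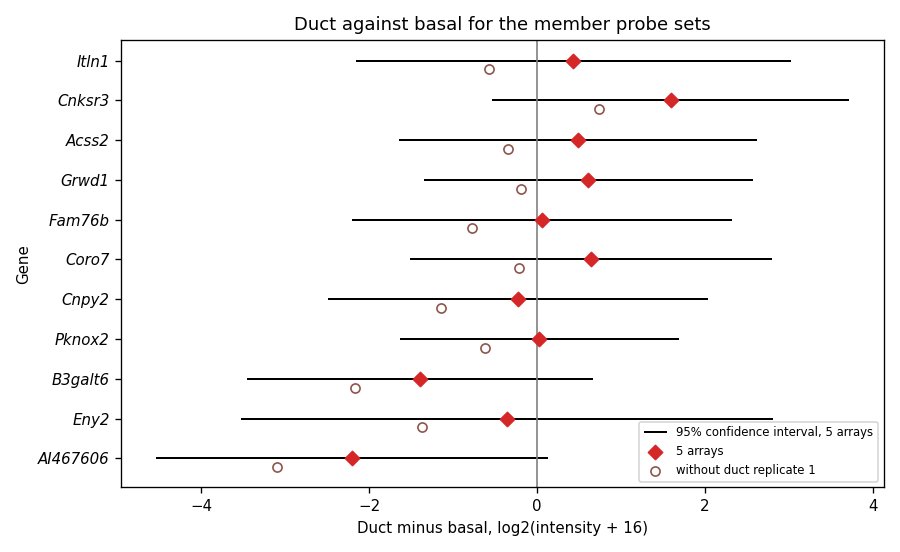
Duct minus basal difference of each member probe set on log2(intensity + 16), as fitted on 5 arrays (diamonds, with 95% confidence intervals) and without duct replicate 1 (circles). All 11 intervals include 0, and the circles of 10 genes lie below 0.

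None of the 11 members belonged to any of 38 lists of cell type markers and cell states, which held 501 genes on the array. The lists were therefore read on their own genes, as duct replicate 1 minus the mean of duct replicates 2 and 3 on log2(intensity + 16), by the most intense probe set of each gene. Of all 18193 genes, 21 (0.115%) were at least 4-fold above both other duct arrays on that scale and 458 (2.52%) at least 4-fold below both, and the median was -0.18. Of the 501 listed genes the counts were 2 and 14, with a median of -0.14. At 403 of the 458 lower genes duct replicate 1 was at or below its brightest control, so these are mostly dim probe sets. The higher genes were dim as well: 5 of the 21 reached 500 on duct replicate 1, and for 15 both other duct arrays were at or below their brightest control. The 2 higher listed genes were Plk1, a kinase of mitosis (21.0, 15.7, 221, 27.5 and 30.3), and Stra6 (140.1, 83.7, 444, 96.8 and 88.9). Plk1 was at background on duct replicates 2 and 3 and, with those raised to the brightest control, was at least 3.57-fold higher. Differences of at least 1 from the mean of the other duct arrays, on the log2 scale, were upward for 3.31% of all genes and downward for 19.9%.

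Lists near the members' known roles held no gene past 4-fold upward, but their genes went both ways. Itln1 is a goblet cell product, and of 17 mucous cell genes 0 were at least 4-fold above or below both other duct arrays, with a median of -0.04 (0.04 with quantile normalization). The most intense were Muc4, a membrane mucin (2741, 3210, 4714, 4534 and 5171), Agr2, a disulphide isomerase of mucous cells (2311, 5784, 3491, 2288 and 1695), and Clca1, a secreted protein of goblet cells (441, 6907, 1615, 696 and 1115). Agr2 and Clca1 were higher on duct replicate 1 than on the other duct arrays, by 0.82 and 0.86 on the log2 scale, and both were higher still on basal replicate 2. The largest upward differences of the list, given with their values known, were Muc5b, a gel-forming mucin (8.81, 1491, 1176, 297 and 759; 1.28), and Fcgbp, a mucus protein (109, 1622, 681, 321 and 239; 1.25). Of the 17 genes these 2 differed by at least 1 upward, and 3 differed by at least 1 downward, among them Gcnt3 (-2.78) and Tff1 (-1.19). The summed intensity of the mucous list ran to 9566 and 23588 in basal cells and to 15411, 12611 and 13412 in duct cells. Its part in the level of Itln1 was not tested.

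Cnksr3 acts on the sodium channel, and of 18 ion transport genes 0 were at least 4-fold higher and 1 was lower, with a median of -0.47. With the arrays at the same median, where all genes stood at 0.43, this list stood at 0.13. On the duct arrays the channel subunit Scnn1a measured 301, 543 and 529 and Scnn1b 162, 300.01 and 192. Scnn1g was at 64.8, 128 and 68.1. These subunits were picked with their values known, and each was lowest on duct replicate 1 as deposited. For the endoplasmic reticulum, where the Cnpy2 protein lies, 19 genes of the unfolded protein response had 0 past 4-fold either way and a median of 0.05; with quantile normalization it was -0.04.

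Lists of fibroblasts and of thyroid, 2 sources of other cells near the trachea, had negative medians on duct replicate 1. Most other lists of cells from outside the airway epithelium did too, as deposited. The fibroblast list had 0 of 12 genes at least 4-fold higher and 3 lower (Col3a1, Lum and Dpt), a median of -0.88 and summed intensities of 8202, 10776 and 12356 on the duct arrays, against 13413 and 11601 on the basal arrays. Col3a1 and Lum, collagen and matrix genes, were at 9.90 and 2.55 on duct replicate 1, under the brightest control. Of the 3 brightest genes of that list, Pcolce was at 4033, 4999 and 5848 on the duct arrays (-0.42). Dcn was at 1520, 3123 and 2524 (-0.88), and Fbln1 went the other way, at 2147, 801 and 1559 (0.93). The genes named were chosen with their values known, other than Pcolce, Dcn and Fbln1, which are the 3 brightest. The thyroid list had 0 of 10 genes past 4-fold either way and a median of -1.05. Its summed intensity ran to 9698, 17767 and 22658 in duct cells and to 631 and 535 in basal cells, most of it Tg, the thyroglobulin gene (11.1, 53.2, 8779, 16062 and 20119). Medians of both lists stayed negative with quantile normalization (-0.76 and -0.68) and with arrays at the same median (-0.44 and -0.37), where the median of all genes was 0.03 and 0.43. These 2 lists were not alone in this. In the same 3 settings the erythroid list was at -1.41, -1.02 and -1.21 and the T and NK cell list at -1.11, -0.40 and -0.69. The endothelium, adipocyte, B and plasma cell, and mast cell and granulocyte lists stayed negative as well. Many of these genes were dim. On duct replicate 1 every erythroid gene was under the brightest control, 39.5. So were most genes of the T and NK cell, endothelium, adipocyte, and mast cell and granulocyte lists. Summed intensities on the duct arrays were 44.9, 267 and 389 for the erythroid list and 415, 877 and 1154 for the T and NK cell list. Those of skeletal muscle, cartilage, and glia and nerve were negative as deposited and turned positive with quantile normalization. The macrophage and dendritic cell list was at -0.15 and turned to 0.07 with quantile normalization. Of its 14 genes 1 differed by at least 1 upward: Csf1r, the receptor of a macrophage growth factor, at 590, 137 and 210 on the duct arrays. In the list 4 genes differed by at least 1 downward, among them Itgax (-1.67) and Cd74 (-1.49). These 3 genes were named with their values known. Over the 38 lists, 10 medians were positive as deposited, 19 with quantile normalization and 25 with the arrays at the same median. The part of these cells in the members' values was not tested.

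The median of all genes was -0.18 as deposited. Over genes that in part went far either way, medians of the airway basal, squamous, serous gland and club cell lists lay between -0.07 and 0.19. Those of the ciliated, ionocyte and neuroendocrine lists were lower, at -0.59, -0.55 and -0.80. With quantile normalization these 3 were at -0.29, 0.20 and -0.16, and with the arrays at the same median at 0.07, 0.02 and -0.34. The myoepithelium list was lower still, at -1.19 over 8 genes, of which 0 were higher than the mean of the other duct arrays. Of these genes 5 differed by at least 1 downward. Its median stayed negative with quantile normalization (-0.69) and with the arrays at the same median (-0.66). Apart from Acta2 and Mylk, its genes were under the brightest control on duct replicate 1. The airway basal list had a median of -0.07 over 14 genes and the squamous list one of 0.19 over 24 genes. The serous gland list was at 0.04 over 27 genes, with 0 higher and 2 lower (Azgp1 and Smr3a, both under 500 on every array). Of its 27 genes 5 differed by at least 1 upward and 9 downward. The bright ones among the 5 were Dmbt1 (6873, 2424 and 4198 on the duct arrays), Pigr (3724, 1412 and 1682), Bpifb1 (1863, 408 and 1374) and Slpi (1209, 344 and 449). They encode secreted defence proteins and the receptor that carries antibodies into secretions. Among the 9, Kcnn4 (527, 1149 and 1643) and Dcpp3 (332, 1522 and 390) passed 500 on a duct array. All of these are given with their values known. Without duct replicate 2 the serous median turned to -0.13 and the squamous one came to 0.04. Without duct replicate 3 they were at 0.095 and 0.43. In the squamous list 4 of 24 genes differed by at least 1 upward, Lor (1.74), Sprr3 (1.43), Sprr1b (1.04) and Lypd3 (1.01). The 1 that differed as far downward was Ivl (-1.62). The club cell list was at 0.16 over 13 genes. Among states, the cell cycle list had a median of 0.28 over 19 genes, with Plk1 alone past 4-fold. It was at 0.08 without duct replicate 2, 0.36 without duct replicate 3 and 0.04 when the probe sets of each gene were averaged. Quantile normalization gave 0.24, and arrays at the same median 0.96, where all genes stood at 0.43. The NRF2 target list was at 0.34, with 9 of 11 genes higher than the mean of the other duct arrays. The inflammation list was at 0.21, with 2 of 21 genes differing by at least 1 upward and 2 downward. Its median was 0.06 without duct replicate 3, 0.16 without duct replicate 2 and 0.46 with quantile normalization. Cxcl1, a neutrophil chemokine, measured 9579, 3860 and 959 on the duct arrays. Il1b, at 12.3, 122 and 146, was the 1 gene of the list past 4-fold, and it was lower. Both were chosen with their values known. The immediate early list was at -0.11, the heat shock list at -0.07 and the circadian list at -0.25. With the arrays at the same median the airway basal, immediate early, heat shock and circadian medians turned positive (0.62, 0.58, 0.63 and 0.43), as did the median of all genes. The squamous, club cell and serous gland medians were then 0.88, 0.85 and 0.60, beside 0.43 for all genes.

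**Figure D5:**
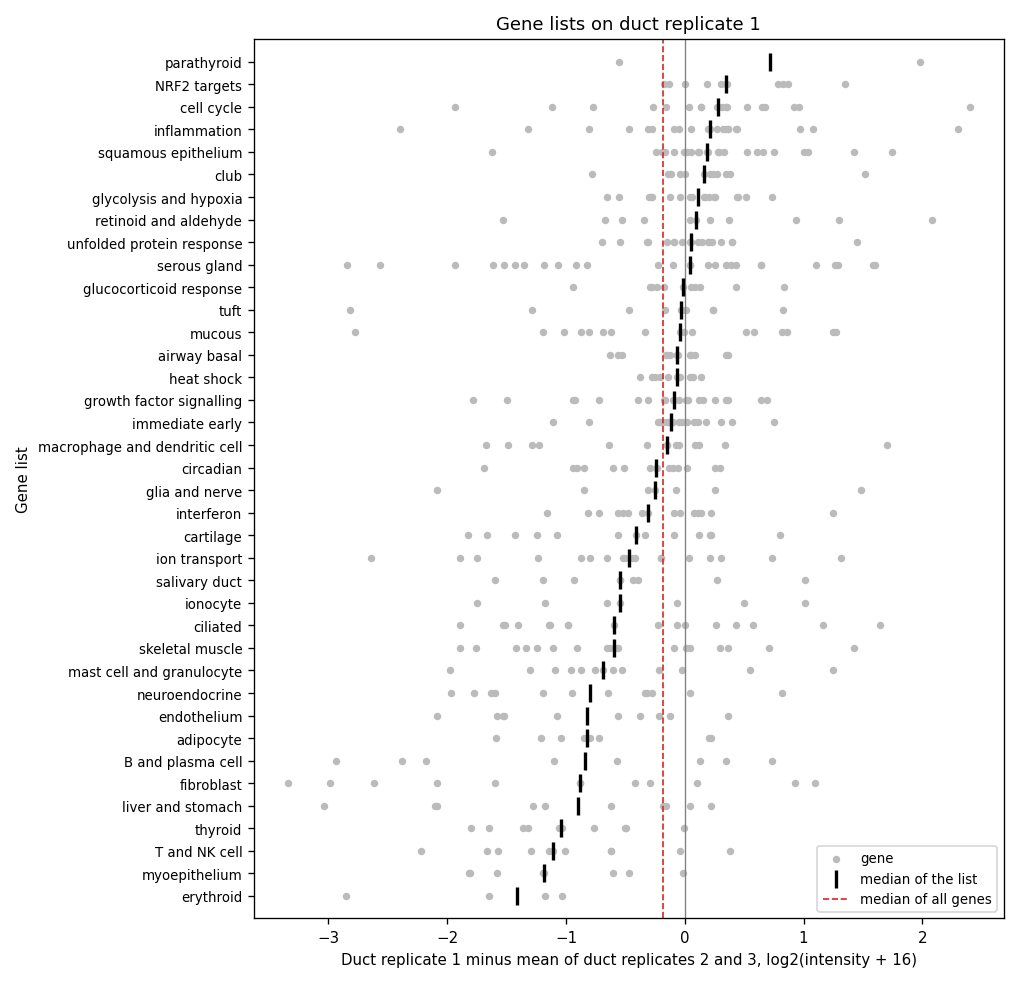
Duct replicate 1 minus the mean of duct replicates 2 and 3 on log2(intensity + 16) for the genes of 38 lists (grey points), with the median of each list (black bar) and of all genes (dashed line, -0.18). The lowest median is -1.41 (erythroid) and the highest 0.72 (parathyroid, 2 genes), followed by 0.34 (NRF2 targets).

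Measures of RNA quality did not single out duct replicate 1. The ratio of the 3′ to the 5′ control probe set of Gapdh was 3.92 on it, 3.95 and 4.37 on duct replicates 2 and 3, and 3.24 and 4.64 on the basal arrays. That of Actb ran from 0.909 to 1.01 over the 5 arrays, with duct replicate 1 the highest. Probe sets brighter than every Bacillus control made up 67.2% on duct replicate 1, 74.6% and 72.5% on duct replicates 2 and 3, and 71.6% and 62.5% on the basal arrays.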

How the data were processed

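RNA of 5 sorted samples (2 basal, 3 duct, grouped by title) was hybridised to an Affymetrix mouse array, per the labels. Deposited were linear intensities, 1 per probe set and array. From the values, the authors had set every array to a common mean of 500.0, taken without the 2% of probe sets at each end. How probes were summarised and background corrected is not given in the sources used, and no detection calls were used here. Of 45101 probe sets, 64 controls were left out; 34945 had 1 gene symbol in the platform's annotation, 932 several and 9160 none. Entrez identifiers were checked against the RefSeq gene table (0 symbols changed). Columns of other samples numbered 0.

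The rule was applied to intensities as deposited. Duct was compared with basal by lmFit and eBayes of limma 3.58.1 (R 4.3.3) on log2(intensity + 16), 2-sided, leaving out the lowest 40% of probe sets by mean, with Benjamini-Hochberg adjustment over 27022 probe sets (3 residual and 2.68 prior degrees of freedom). On this scale the change of dim genes is understated. The fit was tested on simulated data. All adjusted p-values are limma's. Without detection calls, the brightest Bacillus control stood for background. The number of arrays limits the precision, and pools were separate, and the largest number of identical values between arrays of a group was 0. Figures used matplotlib 3.10.9.

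Members and lists were chosen with earlier results of these data known. The naming rule (largest ratios, highest intensities, highest basal levels and basal ratios) covers 10 members, leaving out the clone name AI467606, which is given so that every member is accounted for. Of a list, up to 3 genes by mean intensity were named; other genes mark thresholds, passed 4-fold or were chosen after their values were seen. Alternatives were other scalings, pseudocounts, filters and thresholds, 1 probe set per gene, the replicate number as a block, and each array left out.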

Additional observations from a re-analysis of the deposited data

How the results depend on the processing

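The number of probe sets meeting the rule, 11, was 85 with arrays at the same median, 23 with a minimum of 250 and 5 with one of 1000, 23 with a fold of 3 and 1 (Eny2) with a fold of 8; without 1 of the other duct arrays it was 35 to 52, a rule with fewer arrays to meet. It stayed within 1.5 times with quantile normalization (13), with 16 added (10, without Pknox2) and without probe sets that may cross-hybridise (8). Members at least 4 times both basal arrays numbered 5 with arrays at the same median and 2 to 7 with 1 basal array left out. Listed genes at least 4-fold higher on duct replicate 1 (2) numbered 4 with quantile normalization, 8 at the same median, 0 with a pseudocount of 64 and 4 to 8 with 1 duct array left out. Listed genes at least 4-fold lower (14) numbered 6, 7 and 1 in the same order, 9 with the mean of probe sets and 31 with either duct array left out.

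Members called in duct against basal numbered 0 in limma with all 14 alternatives, while calls over all probe sets ran from 0 to 1282. With no member called, this count has no stability to lose. The samples were separate pools, so replicate numbers were not taken as pairs. Deviations of basal replicate 1 correlated at -0.09, 0.06 and 0.05 with those of duct replicates 1, 2 and 3 across probe sets. With 2 basal arrays, whose deviations mirror each other, these values cannot decide whether the numbers pair. With the replicate number as a block 0 probe sets and 0 members were called, and Cnpy2 and Eny2 turned from -0.23 and -0.37 to 0.33 and 0.065. Cnpy2 turned to 0.0041 with arrays centred on their medians. With 1 array left out, fold changes that changed sign ran from -1.14 to 0.33 for Cnpy2, -1.88 to 1.15 for Eny2, -0.57 to 1.08 for Itln1, -0.35 to 0.98 for Acss2, -0.21 to 1.08 for Coro7, -0.62 to 0.37 for Pknox2, -0.19 to 1.03 for Grwd1 and -0.78 to 0.67 for Fam76b. The cause was not tested. With the most intense probe set of each gene 6 members were tested.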

Other observations

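Below the intensity minimum of the rule, 12 further probe sets between 250 and 500 on duct replicate 1 were at least 4 times both other duct arrays. Lrrc49, a leucine-rich repeat gene, measured 33.3 and 20.1 on the basal arrays, 395 on duct replicate 1 and 16.3 and 17.6 on duct replicates 2 and 3. The latter were at background, which makes it at least 6.38-fold higher. Barx2, a homeobox gene of epithelia, measured 30.5, 26.8, 380.04, 40.5 and 38.1, at least 6.14-fold higher. In these 2 genes duct replicate 1 was the only array above its brightest control. Tcn2, a vitamin B12 carrier, measured 452, 477, 370.2, 40.6 and 13.0. There both basal arrays were above duct replicate 1, as the basal arrays of B3galt6 and AI467606 were in part. These genes were chosen after their values were seen.

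Of the probe sets with no listed gene, 2 met the values of the rule: 1446688_at, at 48.1, 131.9, 558, 125 and 127 in array order, and 1457818_at, at 100.2, 73.8, 816, 76.8 and 159.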
